A study of Mus musculus with 8 samples.

Results

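The 10 transcription factor genes followed here were measured in RNA from testes at postnatal day 5. They were Sox9, Sox8, Wt1, Gata1, Gata4, Gata6, Dmrt1, Tcf21, Lhx9 and Emx2. They were taken by symbol, and all 10 of 10 were found among the 23767 genes of the deposited table. The Dio3KO group held 4 mice labelled Dio3KO and the wild-type group held 4 wild-type mice, all on the 129/SVJ background. The product of Dio3 inactivates thyroid hormones, and the title names thyroid hormone regulated genes of the neonatal testis as the subject. Neither the altered stretch of Dio3 nor the cells in which it was altered is in the labels, which name testis as the tissue while the extraction text names another organ.

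Sertoli cells are the supporting cells of the seminiferous cords. The HMG-box factor SOX9 drives their differentiation in the fetal gonad and SOX8 acts beside it, while the zinc finger proteins WT1 and GATA4 are needed for the gonad to form and for Sertoli cells to keep their identity. DMRT1 keeps the male fate of Sertoli cells after birth and is also made by germ cells. GATA1 appears in mouse Sertoli cells after birth, and GATA6 is present in Sertoli and Leydig cells. TCF21, LHX9 and EMX2 act in the early gonad, and the first 2 are also known from interstitial cells, so RNA of a whole testis does not place any of these transcripts in Sertoli cells.

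The deposited values were the mean RPKM of each group (reads per transcript length and library size), its coefficient of variation (CV, the SD divided by the mean) and an adjusted p-value. Levels of single mice were not used, so whether individual animals overlap cannot be said, and the depth per sample is unknown. Dio3 itself averaged 2.95 RPKM in the Dio3KO-labelled group and 0.52 RPKM in wild type (adjusted p = 0.0408, authors' deposited table), so the targeted gene does not check the label. Sertoli cell markers were present in both groups, with a summed level over 13 genes of 3819 RPKM in Dio3KO-labelled testes and 3166 RPKM in wild-type testes, or 3551 RPKM in Dio3KO-labelled and 2879 RPKM in wild-type testes for the 8 that are not among the 10 factors. Of the 13, 4 rose (Clu, Cldn11, Aard and Wt1) and 4 fell (Amh, Fshr, Dhh and Gata4), and limma made the same numbers of calls. Of all 15225 genes with at least 1 RPKM in either group, 14.0% were higher and 15.9% lower in the authors' deposited table. By limma 18.6% of them were higher and 23.2% lower. Clu, which encodes the secreted protein clusterin, added most to the difference of the sums, at 1232 RPKM in Dio3KO-labelled and 797 RPKM in wild-type testes. Of 10 hypothalamic markers, 7 were under 1 RPKM in both groups. The other 3 were Nkx2-1 (Dio3KO-labelled 6.45 RPKM, wild type 4.72 RPKM) and Agrp (Dio3KO-labelled 0.77 RPKM, wild type 1.49 RPKM), which did not pass, and Syt1, which fell to 0.74 RPKM in Dio3KO-labelled testes, against 1.43 RPKM in wild type. Limma called Syt1 and Agrp lower, and both reached 1 RPKM only in the wild-type group, where they were higher. In whole tissue, fewer cells of a type and less RNA per cell cannot be told apart.

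The levels of the 10 genes ran from under 1 RPKM to near the top of the expressed genes. Dmrt1 was the highest, at 83.1 RPKM in Dio3KO-labelled testes and 97.4 RPKM in wild-type testes, above 94.6% of the 15225 genes with at least 1 RPKM in either group. Gata4, Tcf21 and Wt1 followed, above 92.6%, 92.0% and 91.8% of those genes. Sox8 had 42.2 RPKM in Dio3KO-labelled testes and 40.6 RPKM in wild type, and its relative Sox9 had 13.4 RPKM in Dio3KO-labelled testes and 12.1 RPKM in wild type. RPKM is a level per transcript length, but these levels are those of the best expressed transcript of each gene. How reads were shared between overlapping transcripts is not known. In Dio3KO-labelled testes the transcripts of Sox8 ran from 13.2 to 42.2 RPKM and those of Sox9 from 7.07 to 13.4 RPKM. Between the best expressed transcripts, the ratio of Sox8 to Sox9 was 3.15 in the Dio3KO-labelled group and 3.35 in wild type. It depends on the transcripts chosen.

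The order of levels was nearly the same in both groups, with changes at 2 places. In Dio3KO-labelled testes the order was Dmrt1, Wt1, Tcf21, Gata4, Sox8, Gata6, Sox9, Gata1, Lhx9 and Emx2. In wild-type testes Gata4 stood second, ahead of Tcf21 and Wt1, and Lhx9 stood before Gata1. Neighbours whose ranges of mean ± SD overlapped, the SD being the CV times the mean, were Wt1 and Tcf21, Tcf21 and Gata4, and Sox9 and Gata1 in Dio3KO-labelled testes. In wild-type testes they were Tcf21 and Wt1, and Lhx9 and Gata1. The ratio of Wt1 to Gata4 was thus 1.08 in the Dio3KO-labelled group and 0.78 in wild type, a description with no test of its own.

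**Figure D1:**
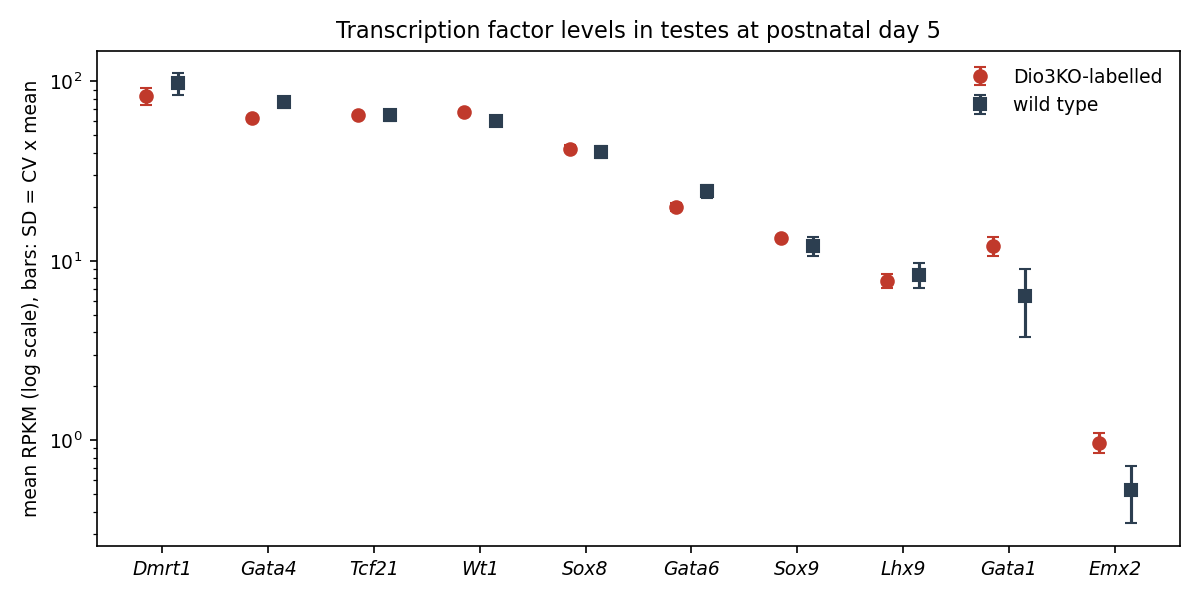
Mean RPKM on a log scale for each gene, with Dio3KO-labelled testes as circles on the left and wild-type testes as squares on the right; bars are the SD, taken as the deposited CV times the mean of 4 samples. Gata1 (Dio3KO-labelled 12.1 RPKM, wild type 6.37 RPKM) and Emx2 (Dio3KO-labelled 0.97 RPKM, wild type 0.53 RPKM) show the widest gaps between the groups.

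Of the genes, 9 reached 1 RPKM and were tested, and Emx2 did not. By the authors' deposited table (adjusted p below 0.05), 2 of these 9 rose in Dio3KO-labelled testes (Gata1 and Wt1), 2 fell (Gata4 and Gata6) and 5 did not pass (Sox9, Sox8, Dmrt1, Tcf21 and Lhx9). Of all genes tested, 14.0% were higher and 15.9% lower by the same rule, 29.9% in either direction, against 44.4% of the 9. The difference between these shares was not tested. The median log2 ratio of Dio3KO-labelled over wild type, on the scale of log2(RPKM + 0.5), was 0.00 for the 9 and -0.05 for all genes tested. The median size of the ratio regardless of sign was 0.16 for the 9 and 0.17 for all genes. None of the 10 differed by as much as 2-fold on that scale. A moderated limma test computed from the means and CVs of all genes made the same 4 calls, against 18.6% of all genes higher and 23.2% lower, 41.8% in either direction. At an unadjusted p below 0.05, limma had 3343 of the 15225 genes higher and 4395 lower. With the median ratio of the 10675 genes at or above 5 RPKM in both groups set to 1, limma made the same 4 calls and called 3511 genes higher and 2574 lower, against 2837 higher and 3529 lower without that step.

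**Figure D2:**
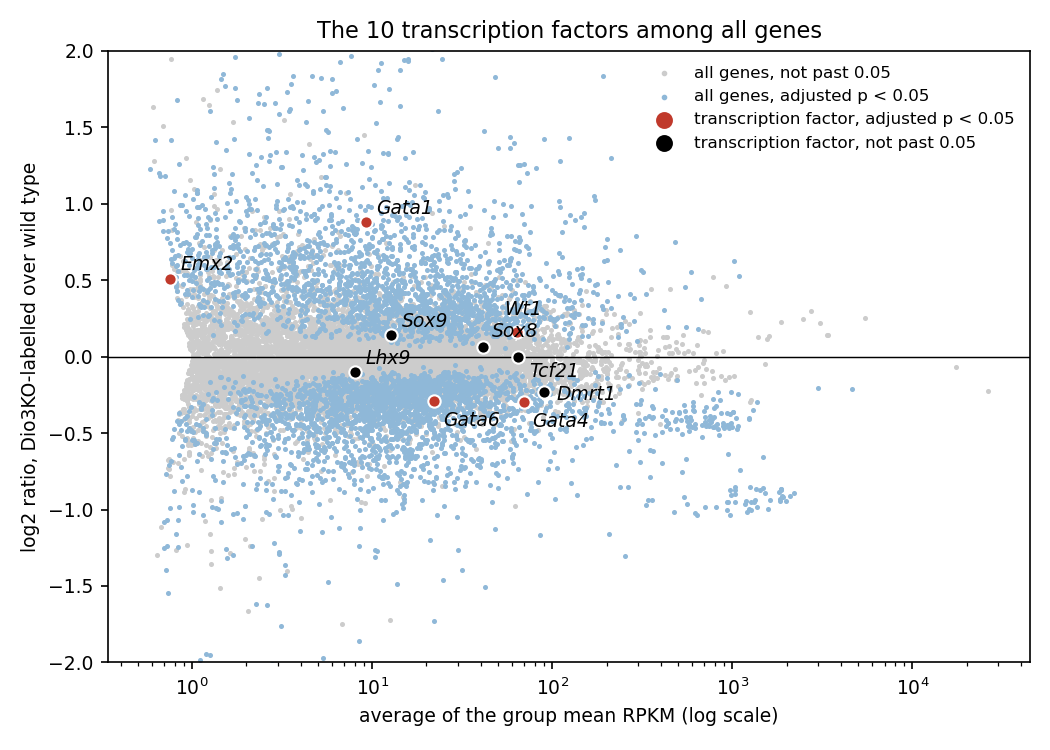
Each point is a gene with at least 1 RPKM in either group, and Emx2 is added below that limit; the x axis is the average of the group means in RPKM (log scale) and the y axis the log2 ratio of Dio3KO-labelled over wild type on the log2(RPKM + 0.5) scale. The 10 factors lie inside the cloud of all genes, with Gata1 at 0.88 the highest and Gata4 at -0.30 the lowest; 56 other genes lie beyond the limits of the y axis.

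The 3 GATA genes did not move together. Gata1, a zinc finger factor best known from red blood cell and mast cell development, had 12.1 RPKM (CV 0.12) in Dio3KO-labelled testes and 6.37 RPKM (CV 0.41) in wild-type testes. Its level was 1.90-fold higher, a log2 ratio of 0.88 ± 0.29 (SE from CVs, adjusted p = 0.0497, authors' deposited table). This p lies just under the threshold, and the wild-type group varied more than for any other of these genes. The second transcript of Gata1 had 6.54 RPKM (CV 0.14) in Dio3KO-labelled and 3.46 RPKM (CV 0.34) in wild-type testes (adjusted p = 0.0333, authors' deposited table). Its share of the summed Gata1 signal was 35.1% in Dio3KO-labelled and 35.2% in wild-type testes, and both transcripts passed.

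Gata1 lies on the minus strand of chromosome X from 7959260 to 7978071 (GRCm38, GENCODE M21), with 3 annotated transcript starts spread over 13905 bases. The deposited transcripts could not be paired with these starts. None of the 36-base stretches of its annotated transcripts occurred in a transcript of another gene. Other cells that make Gata1 were looked at through 9 measured genes of red blood cells and mast cells, whose summed level was 689 RPKM in Dio3KO-labelled and 749 RPKM in wild-type testes. Most of that sum was beta-globin (Hbb-bs), at 649 RPKM (CV 0.16) in Dio3KO-labelled and 710 RPKM (CV 0.57) in wild-type testes. The sum over all genes tested was also lower in Dio3KO-labelled testes, at 550224 RPKM, against 609979 RPKM in wild type. The erythroid factor Klf1 had 0.27 RPKM in Dio3KO-labelled and 0.56 RPKM in wild-type testes, and the mast cell protease Mcpt4 had 12.1 RPKM in Dio3KO-labelled and 10.6 RPKM in wild-type testes. Of the 6 genes tested, 0 passed in the authors' deposited table, against 29.9% of all genes tested. Over all genes tested limma called 18.6% higher and 23.2% lower. Here it called 1 higher and 0 lower, with the same numbers at an unadjusted p below 0.05. That gene was Kit, a receptor of mast cells that spermatogonia and Leydig cells also make, at 8.40 RPKM (CV 0.10) in Dio3KO-labelled and 6.09 RPKM (CV 0.22) in wild-type testes (limma adjusted p = 0.0228). The part of these cells in the Gata1 result was not tested.

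The 250 bases before the RefSeq start of Gata1 are shown because this gene had the largest ratio of the 10 and this window holds 0 bases of annotated exons. The start that follows the window, at 7967910, is the middle of the 3 annotated ones and lies 10161 bases inside the outermost, so the window is within the annotated gene. They lie on the minus strand at chrX:7967911-7968160 (RefSeq, GRCm38.p6) and are written 5′ to 3′, with capitals marking a match to the GC box CCGCCC on the opposite strand.
Gata1: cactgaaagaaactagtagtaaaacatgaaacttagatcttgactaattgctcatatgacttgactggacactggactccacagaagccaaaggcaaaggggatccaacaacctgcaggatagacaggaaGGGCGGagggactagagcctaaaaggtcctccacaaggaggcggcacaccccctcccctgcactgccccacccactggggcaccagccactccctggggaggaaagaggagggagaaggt
The match begins 120 bases before that start, and 32.7% of the 32851 windows of all genes hold this motif on either strand. The nuclear receptor half-site AGGTCA (14.0% of windows), the GATA motif GATAA (22.6%) and the SOX motif AACAAT (9.42%) were not in this window on either strand. A match or its absence describes letters and not binding. Which of the 3 annotated starts was used in these testes was not tested.

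Gata4, which activates Amh and other Sertoli cell genes, fell to 62.1 RPKM (CV 0.03) in Dio3KO-labelled testes, against 76.8 RPKM (CV 0.07) in wild-type testes. The log2 ratio was -0.30 ± 0.05 (SE from CVs, adjusted p = 0.0353, authors' deposited table). Its 3 transcripts gave ratios between -0.31 and -0.30 and all passed. Gata6 fell to 19.9 RPKM (CV 0.05) in Dio3KO-labelled testes, against 24.4 RPKM (CV 0.08) in wild-type testes. The log2 ratio was -0.29 ± 0.07 (SE from CVs, adjusted p = 0.0386, authors' deposited table), and its second transcript, at 5.67 RPKM in Dio3KO-labelled and 7.50 RPKM in wild-type testes, had an adjusted p of 0.0072 there.

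Gata4 and Gata6 fell in proportion. The ratio of Gata4 to Gata6 was 3.13 in Dio3KO-labelled testes and 3.14 in wild-type testes, while that of Gata4 to Gata1 was 5.13 in Dio3KO-labelled and 12.06 in wild-type testes. Gata4 (minus strand of chromosome 14, from 63198922 to 63271692) shared 0 exonic bases with other annotated genes. Leydig cells also make Gata4 and Gata6. Of 6 measured Leydig and steroid-making cell markers 2 rose and 0 fell, against 14.0% higher and 15.9% lower among all genes tested. Limma called 3 higher and 0 lower (1 lower at an unadjusted p below 0.05), against 18.6% and 23.2%. Their summed level was 574 RPKM in Dio3KO-labelled and 390 RPKM in wild-type testes. Most of the difference came from Cyp11a1 (Dio3KO-labelled 156 RPKM, wild type 64.2 RPKM) and Hsd3b1 (Dio3KO-labelled 245 RPKM, wild type 158 RPKM). Insl3 (Dio3KO-labelled 70.0 RPKM, wild type 84.7 RPKM) and Cyp17a1 (Dio3KO-labelled 55.07 RPKM, wild type 55.45 RPKM) were not higher. The part of these cells in the Gata4 and Gata6 results was not tested.

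Among 8 tested relatives and partners of the GATA factors, 1 rose and 1 fell, against 14.0% higher and 15.9% lower among all genes tested. Zfpm1, which encodes the GATA1 cofactor FOG1, fell to 14.2 RPKM (CV 0.14) in Dio3KO-labelled testes, against 23.9 RPKM (CV 0.13) in wild type (adjusted p = 0.0209, authors' deposited table). Zfpm2, encoding FOG2, the partner of GATA4 in the gonad, had 5.07 RPKM in Dio3KO-labelled and 4.58 RPKM in wild-type testes and did not pass. Lmo2, a LIM-only cofactor of blood and endothelial cells, rose to 4.39 RPKM in Dio3KO-labelled testes, against 3.36 RPKM in wild type. Gatad1 (Dio3KO-labelled 30.70 RPKM, wild type 30.65 RPKM) and Gatad2a (Dio3KO-labelled 26.8 RPKM, wild type 29.3 RPKM) did not pass, and Gata2, Gata3 and Gata5 were at or below 1.57 RPKM in both groups.

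Wt1 rose by a small amount. Its best expressed transcript had 67.1 RPKM (CV 0.03) in Dio3KO-labelled testes and 59.98 RPKM (CV 0.05) in wild-type testes. The log2 ratio was 0.16 ± 0.04 (SE from CVs, adjusted p = 0.0371, authors' deposited table), with a 95% interval of 0.05 to 0.27 from limma. The second transcript had 60.3 RPKM (CV 0.02) in Dio3KO-labelled and 54.7 RPKM (CV 0.05) in wild-type testes, a log2 ratio of 0.14 ± 0.04 (adjusted p = 0.0552, authors' deposited table). The call on Wt1 therefore holds for 1 of its 2 transcripts, although their ratios differ by less than the SE of either.

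The Wt1 transcripts kept similar proportions, which were not compared by a test. The better expressed of them made up 52.7% of the summed Wt1 signal in Dio3KO-labelled testes and 52.3% in wild-type testes. Splice forms of WT1 with and without the amino acids KTS between its zinc fingers have distinct roles in the gonad, but the deposited identifiers are not tied to splice forms in the sources used here. Because transcripts of a gene share exons, their levels of nearly equal size are not independent. Wt1 spans 105126529 to 105173616 of chromosome 2 (plus strand), and its exons shared 0 bases with another annotated gene. Its divergent antisense neighbour Wt1os, listed under an older symbol, had 1.84 RPKM in Dio3KO-labelled and 2.50 RPKM in wild-type testes (adjusted p = 0.0771, authors' deposited table).

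Dmrt1 was lower in mean but did not pass. Its best expressed transcript had 83.1 RPKM (CV 0.11) in Dio3KO-labelled testes and 97.4 RPKM (CV 0.14) in wild-type testes, a log2 ratio of -0.23 ± 0.13 (SE from CVs). The adjusted p was 0.228 in the authors' deposited table, and the 95% interval from limma ran from -0.46 to 0.00, so a fall of the size seen for Gata4 lies inside it. The other transcripts had 77.3 and 58.9 RPKM in Dio3KO-labelled testes, against 89.6 and 72.8 RPKM in wild-type testes. Their log2 ratios were -0.21 ± 0.13 and -0.30 ± 0.17, and neither passed (adjusted p = 0.2412 and 0.2014, authors' deposited table).

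The 3 Dmrt1 transcripts kept similar proportions. The least expressed of them had 0.71 of the level of the best expressed in Dio3KO-labelled testes and 0.75 in wild-type testes. Dmrt1 spans 25505618 to 25604329 of chromosome 19 (plus strand), with 3 annotated starts within 89 bases of each other. Germ cells also make Dmrt1. Of 7 germ cell markers 0 passed in the authors' deposited table, against 29.9% of all genes tested. Limma called 1 higher and 2 lower, the same numbers as at an unadjusted p below 0.05. Over all genes tested limma called 18.6% higher and 23.2% lower. The summed level of the germ cell markers was 243 RPKM in Dio3KO-labelled and 262 RPKM in wild-type testes. The sum over all genes tested was also lower in Dio3KO-labelled testes (550224 RPKM, against 609979 RPKM in wild type). The part of germ cells in the Dmrt1 values was not tested.

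Of 6 tested relatives of Dmrt1, 2 rose and 1 fell, against 14.0% higher and 15.9% lower among all genes tested. Dmrtc1a, a DMRT-like gene of the X chromosome, rose to 19.4 RPKM (CV 0.15) in Dio3KO-labelled testes, against 5.43 RPKM (CV 0.36) in wild type. Its log2 ratio was 1.75 ± 0.26 (SE from CVs, adjusted p = 0.0072, authors' deposited table), a larger ratio than that of any of the 10 genes. Dmrtc1a has near-identical copies, so how reads were split between them is uncertain, and the copy Dmrtc1b was listed at 0.41 RPKM in Dio3KO-labelled and 0.17 RPKM in wild-type testes. Dmrtc2 rose to 1.03 RPKM in Dio3KO-labelled testes, against 0.56 RPKM in wild type. It reached the limit of 1 RPKM only in the Dio3KO-labelled group, where it was higher. Dmrtc1b, under that limit in both groups, was not counted. Dmrt2, from the same gene cluster as Dmrt1, fell to 1.10 RPKM in Dio3KO-labelled testes, against 1.96 RPKM in wild type. Dmrta1 (Dio3KO-labelled 23.1 RPKM, wild type 18.6 RPKM) and Dmrt3 (Dio3KO-labelled 2.88 RPKM, wild type 2.51 RPKM) did not pass.

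Neither SOX gene passed. Sox9 had 13.4 RPKM (CV 0.02) in Dio3KO-labelled testes and 12.1 RPKM (CV 0.12) in wild-type testes, a log2 ratio of 0.14 ± 0.08 (SE from CVs). The adjusted p was 0.2518 in the authors' deposited table and the 95% interval from limma was -0.02 to 0.31, which includes the ratio of Wt1. The other transcripts of Sox9 pointed the other way, at 7.26 and 7.07 RPKM in Dio3KO-labelled testes and 7.61 and 7.34 RPKM in wild-type testes, with log2 ratios of -0.06 ± 0.18 and -0.05 ± 0.17. Sox9 was the only one of the 10 genes whose transcripts differed in sign. Only 0.537% of its 36-base stretches occurred in another gene, most of them in Sox10, which had 0.50 RPKM in Dio3KO-labelled and 0.56 RPKM in wild-type testes.

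Sox8 had 42.2 RPKM (CV 0.04) in Dio3KO-labelled testes and 40.6 RPKM (CV 0.08) in wild-type testes. The log2 ratio was 0.06 ± 0.06 (SE from CVs, adjusted p = 0.4446, authors' deposited table), with a 95% interval of -0.08 to 0.19 from limma. Its further transcripts gave log2 ratios of 0.08 and 0.05. An antisense gene, 2810468N07Rik, covers 329 of the 3118 exonic bases of Sox8, and the strandedness of the counting is not given in the sources used here. Sox8 and Sox9 shared 0 of these 36-base stretches with each other or with any other of the 10 genes.

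Of 9 tested other SOX genes, 1 rose and 2 fell, against 14.0% higher and 15.9% lower among all genes tested. Limma called 2 of the 9 higher and 3 lower, with the same numbers at an unadjusted p below 0.05. Its shares over all genes tested were 18.6% higher and 23.2% lower. Sox6 had 4.06 RPKM in Dio3KO-labelled and 3.13 RPKM in wild-type testes. It did not pass in the authors' deposited table (adjusted p = 0.0505), but limma called it higher (adjusted p = 0.0119). Sox17, known from endothelial cells, rose to 2.22 RPKM in Dio3KO-labelled testes, against 1.14 RPKM in wild type (adjusted p = 0.0096, authors' deposited table). Of 6 endothelial markers 3 rose and 0 fell, against the same 14.0% and 15.9% over all genes tested. Limma called 5 of them higher and 0 lower, with the same numbers at an unadjusted p below 0.05. Over all genes tested limma called 18.6% higher and 23.2% lower. The summed level of the endothelial markers was 62.8 RPKM in Dio3KO-labelled and 50.5 RPKM in wild-type testes, and their part in the Sox17 and Lmo2 results was not tested. Sox18, also known from endothelial cells and better expressed, had 10.6 RPKM (CV 0.15) in Dio3KO-labelled and 14.5 RPKM (CV 0.14) in wild-type testes. Its log2 ratio of -0.43 ± 0.14 did not pass in the authors' deposited table (adjusted p = 0.0755), but limma called it lower (adjusted p = 0.0137). Sox7, of the same SOX subgroup, was at 0.77 RPKM in Dio3KO-labelled and 0.79 RPKM in wild-type testes. Sox11 fell to 1.69 RPKM in Dio3KO-labelled testes, against 2.24 RPKM in wild type, and Sox13 fell to 9.84 RPKM, against 11.2 RPKM in wild type. Sox4 (Dio3KO-labelled 42.4 RPKM, wild type 44.8 RPKM) and Sox12 (Dio3KO-labelled 12.5 RPKM, wild type 12.7 RPKM) did not pass. Sry, the fetal switch of testis formation, was listed at 0.00 RPKM in Dio3KO-labelled and 0.01 RPKM in wild-type testes.

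Tcf21, a basic helix-loop-helix factor, had 64.88 RPKM (CV 0.03) in Dio3KO-labelled testes and 64.85 RPKM (CV 0.07) in wild-type testes. The log2 ratio was 0.00 ± 0.05 (SE from CVs, adjusted p = 0.7979, authors' deposited table), with a 95% interval of -0.12 to 0.13 from limma. That interval holds neither the ratio of Gata4 nor that of Wt1. The interval of Wt1, 0.05 to 0.27, overlaps that of Tcf21, and the genes were not compared by a test. Lhx9, a LIM-homeobox factor, had 7.73 RPKM (CV 0.09) in Dio3KO-labelled and 8.34 RPKM (CV 0.16) in wild-type testes. Its log2 ratio was -0.10 ± 0.12 (SE from CVs, adjusted p = 0.4841, authors' deposited table), and its 4 transcripts gave ratios between -0.12 and -0.07. The 95% interval of Lhx9 from limma, -0.33 to 0.13, includes the ratio of Gata4.

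Emx2, a homeobox factor without which the mouse gonad does not form, was the least expressed of the 10. It had 0.97 RPKM (CV 0.13) in Dio3KO-labelled testes and 0.53 RPKM (CV 0.35) in wild-type testes, and its level stayed under the limit of 1 RPKM set for the counts above. The log2 ratio was 0.51 ± 0.14 (SE from CVs, adjusted p = 0.0376, authors' deposited table). Its antisense gene Emx2os, which covers 264 of its 3002 exonic bases, had 0.57 RPKM in Dio3KO-labelled and 0.48 RPKM in wild-type testes and an adjusted p of 0.4162 there. Its paralog Emx1 was at 0.07 RPKM in Dio3KO-labelled and 0.03 RPKM in wild-type testes.

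Relatives of these last factors were mostly weakly expressed or did not pass. Of 14 LIM-homeobox, EMX and cofactor genes only 3 reached 1 RPKM, and 0 of them passed in the authors' deposited table. Over all genes tested limma called 18.6% higher and 23.2% lower. Here it called 0 higher and 1 lower, with the same numbers at an unadjusted p below 0.05. That gene was Lhx1, at 0.50 RPKM in Dio3KO-labelled and 1.32 RPKM in wild-type testes. It reached 1 RPKM only in the wild-type group, where it was higher. Ldb1, which encodes the shared cofactor of LIM-homeodomain proteins, had 44.99 RPKM in Dio3KO-labelled and 48.8 RPKM in wild-type testes, and Ldb2 had 10.1 RPKM in Dio3KO-labelled and 9.60 RPKM in wild-type testes. Of 8 tested helix-loop-helix genes, 2 fell and 0 rose, against 15.9% lower and 14.0% higher among all genes tested. Limma called 3 lower and 0 higher, with 1 higher at an unadjusted p below 0.05. Its shares over all genes tested were 23.2% lower and 18.6% higher. Tcf23 fell to 6.49 RPKM in Dio3KO-labelled testes, against 8.10 RPKM in wild type, and Tcf3, which encodes E proteins that pair with TCF21-type factors, fell to 33.7 RPKM, against 39.9 RPKM in wild type. Scx (Dio3KO-labelled 48.9 RPKM, wild type 47.4 RPKM) and Tcf12 (Dio3KO-labelled 35.4 RPKM, wild type 36.2 RPKM) did not pass.

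**Figure D3:**
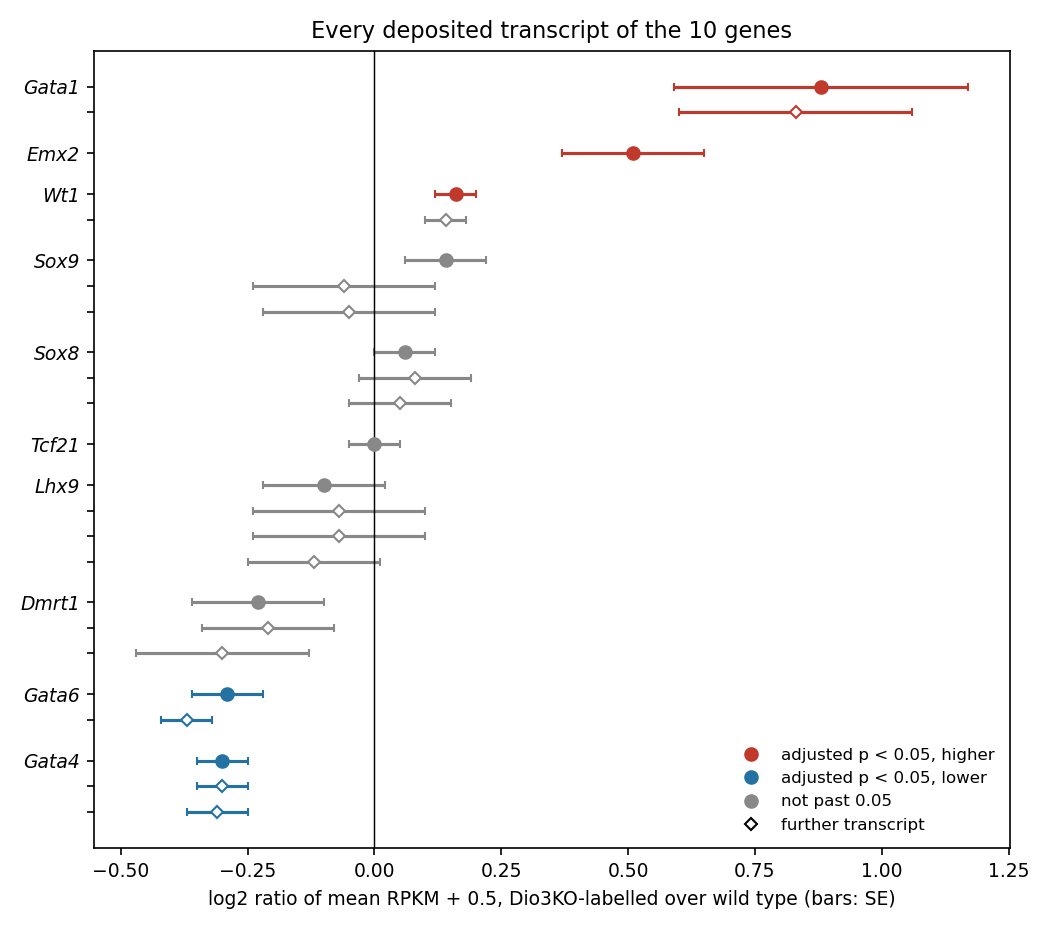
Log2 ratio of Dio3KO-labelled over wild type for all 24 deposited transcripts of the 10 genes, with the SE from CVs as bars; filled circles are the best expressed transcript and open diamonds the others, red and blue mark a deposited adjusted p below 0.05. The transcripts of Gata1 lie at 0.83 and 0.88 and those of Gata4 between -0.31 and -0.30, while those of Sox9 lie on both sides of 0.

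Of the 24 transcripts of the 10 genes, 23 had at least 1 RPKM in either group, all but that of Emx2. Of these 3 rose, 5 fell and 15 did not pass, against 13.9% higher and 15.7% lower among all 35030 transcripts at that level (29.6% in either direction). The falls were 3 transcripts of Gata4 and 2 of Gata6, and the rises were 2 of Gata1 and 1 of Wt1. Transcripts of a gene share exons and are not independent, so these counts restate the calls on the genes. Wt1 was the only gene with transcripts on both sides of the threshold.

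Other transcription factors of the gonad split evenly, with 4 of 25 tested rising and 4 falling and a median log2 ratio of -0.06. Of all genes tested, 14.0% were higher and 15.9% lower. Limma called 6 of the 25 higher and 6 lower (8 higher and 7 lower at an unadjusted p below 0.05). Its shares over all genes tested were 18.6% higher and 23.2% lower. Nr5a1, which encodes SF1, the partner of GATA4, WT1 and SOX9 on the Amh promoter, fell to 68.6 RPKM (CV 0.06) in Dio3KO-labelled testes, against 82.1 RPKM (CV 0.07) in wild type. Its log2 ratio of -0.26 ± 0.07 (SE from CVs) passed (adjusted p = 0.0387, authors' deposited table) and lay within its SE of that of Gata4. Cbx2, a Polycomb protein needed for male sex determination, fell to 11.1 RPKM in Dio3KO-labelled testes, against 16.1 RPKM in wild type. Trim28, which encodes a corepressor, fell to 132 RPKM in Dio3KO-labelled testes, against 166 RPKM in wild type. Wtip, a WT1-interacting protein, fell to 13.3 RPKM, against 16.7 RPKM in wild type.

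The estrogen receptor gene Esr1 rose to 12.2 RPKM in Dio3KO-labelled testes, against 8.82 RPKM in wild type. Pax8, a paired-box factor, rose to 1.89 RPKM in Dio3KO-labelled testes, against 0.66 RPKM in wild type. It reached 1 RPKM only in the Dio3KO-labelled group, where it was higher. Of 8 macrophage markers 6 rose and 0 fell, against 14.0% higher and 15.9% lower among all genes tested. Limma called 8 of them higher and 0 lower, with the same numbers at an unadjusted p below 0.05. Over all genes tested limma called 18.6% higher and 23.2% lower. The summed level of the macrophage markers was 138 RPKM in Dio3KO-labelled and 70.0 RPKM in wild-type testes. Their part in the results for the other gonad factors was not tested. Among the macrophage markers that rose, Cd163 (Dio3KO-labelled 1.09 RPKM, wild type 0.51 RPKM) reached 1 RPKM only in the Dio3KO-labelled group. Wtap (Dio3KO-labelled 41.7 RPKM, wild type 43.6 RPKM) and Cited2 (Dio3KO-labelled 28.4 RPKM, wild type 32.1 RPKM) did not pass.

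**Figure D4:**
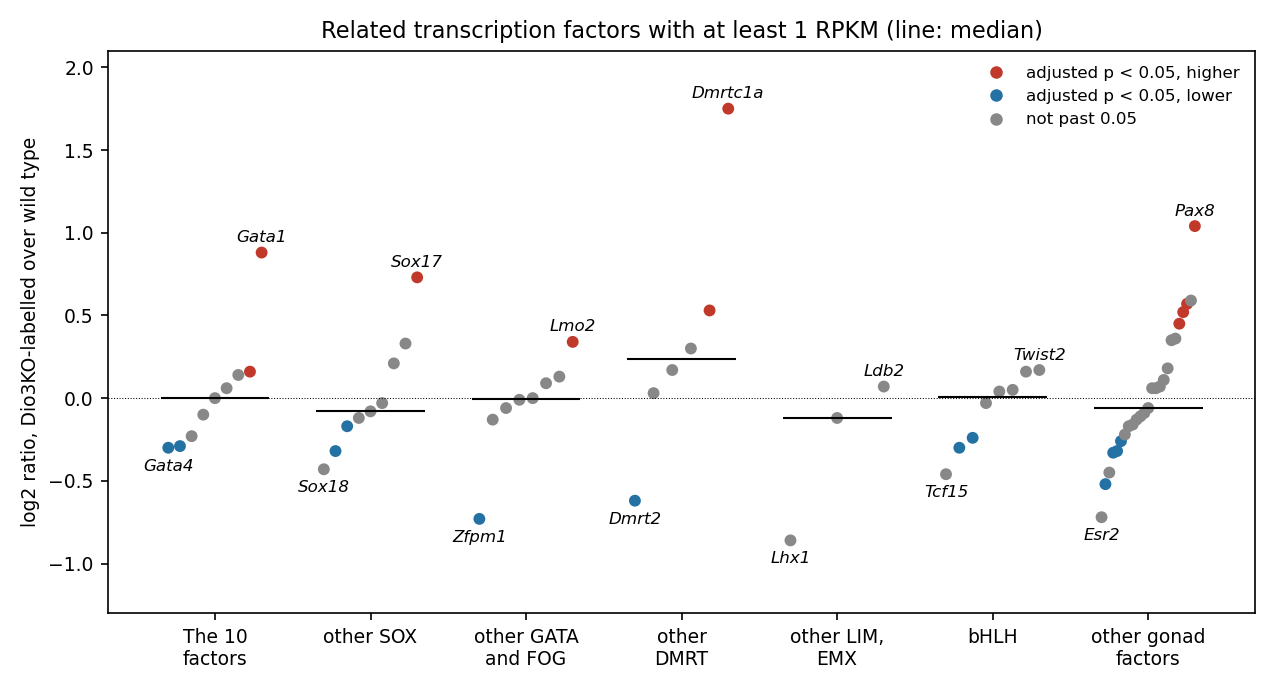
Log2 ratio of Dio3KO-labelled over wild type for every gene with at least 1 RPKM in the 10-gene set and in 6 lists of related factors, with the list's median as a line; red and blue mark a deposited adjusted p below 0.05. Dmrtc1a at 1.75 and Pax8 at 1.04 are the only points above 1, and the medians lie between -0.12 and 0.24.

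Of 37 tested genes described downstream of these factors or in Sertoli cell function, 5 rose and 14 fell, against 14.0% higher and 15.9% lower among all genes. Over all genes tested limma called 18.6% higher and 23.2% lower. Of the 37 it called 11 higher and 15 lower (13 higher and 15 lower at an unadjusted p below 0.05). Their median log2 ratio was -0.05, the same as that of all genes. The largest falls were not matched in size by any of the 10 factors. Amh, the classical target of SOX9, WT1, GATA4 and SF1, fell to 127 RPKM in Dio3KO-labelled testes, against 284 RPKM in wild type, a log2 ratio of -1.16 ± 0.12 (SE from CVs). Dhh, the hedgehog ligand of Sertoli cells, fell to 64.2 RPKM in Dio3KO-labelled testes, against 82.4 RPKM in wild type, and Gdnf, the ligand for spermatogonial stem cells, fell to 5.05 RPKM, against 8.66 RPKM in wild type. Fshr (log2 ratio -0.87) and Hsd17b3 (-3.45) fell too. Those that rose were Cldn11, Cldn5, Erbb3, Col9a3 and Aard, with log2 ratios of 1.84, 0.82, 0.86, 0.42 and 0.38. Inha (Dio3KO-labelled 455 RPKM, wild type 435 RPKM) and Cst9 (Dio3KO-labelled 317 RPKM, wild type 294 RPKM) did not pass. Amh, Dhh, Gdnf, Erbb3, Col9a3 and Aard here, and Clu, Kit, Sox6, Sox18 and Sox7 above, were named after their values were seen.

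All 10 factors had a lower CV in Dio3KO-labelled than in wild-type testes. The median CV of the 10 was 0.04 in Dio3KO-labelled and 0.10 in wild-type testes, against medians over all genes tested of 0.06 in Dio3KO-labelled and 0.08 in wild-type testes. Among all genes tested 59.5% had the lower CV in the Dio3KO-labelled group. The CVs rest on 4 samples each and genes of a sample are not independent, so this is a description with no test.

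**Figure D5:**
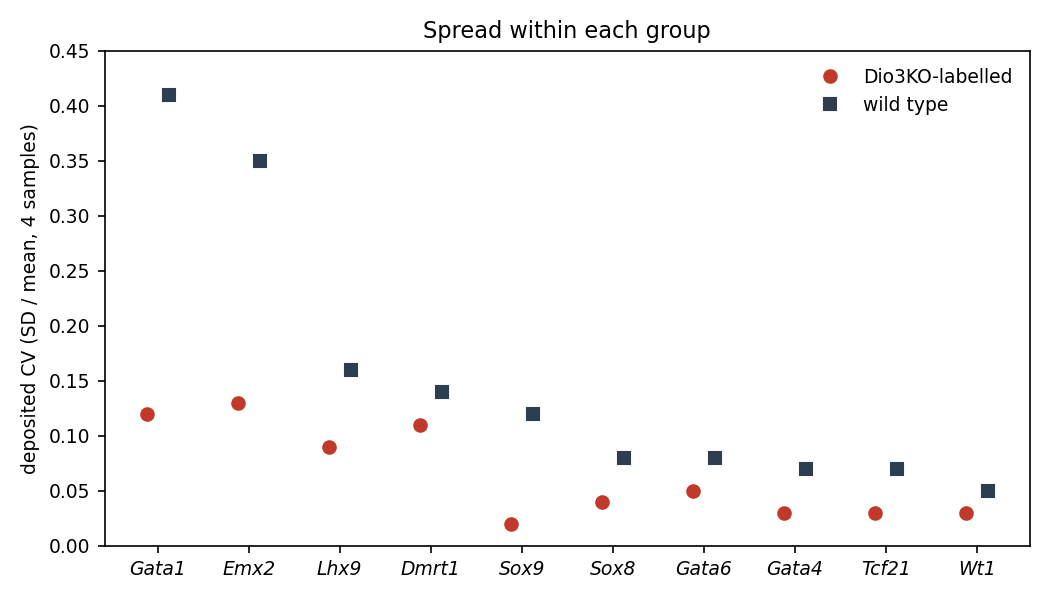
Deposited CV of each of the 10 genes, with Dio3KO-labelled testes as circles on the left and wild-type testes as squares on the right. Every circle lies below its square, with the widest gap for Gata1 (Dio3KO-labelled 0.12, wild type 0.41).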

How the data were processed

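RNA of testes from 8 mice was sequenced. FastQC, Novoalign 2.08 and mm10 are named without a role in the submitters' processing notes; no counting tool, annotation or strandedness is given in the sources used here. Per the file headers, the table the authors deposited gives each transcript's mean RPKM by group, the CV (SD over mean) and an adjusted p-value whose test is not stated. Columns were tied to groups by name, with 0 per-sample columns left aside, and depth per sample is unknown.

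The 147417 lines held each transcript 3 times, leaving 49139 transcripts. Of 24582 symbols, 18080 were current, 2557 older and 3945 unmatched in RefSeq and GENCODE names. The best expressed transcript stood for its gene, and 15225 genes had at least 1 RPKM in either group. Ratios are log2((Dio3KO + 0.5)/(wild type + 0.5)), which understates low genes, with a delta-method SE from the CVs of 4 samples a group. "Rose" and "fell" mean a deposited adjusted p below 0.05. The limma p-values weigh the difference of the group means against the spread between these samples only. The test behind the deposited p-values is not stated.

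The alternative test shrank variances from the CVs across all genes with limma 3.58.1 (squeezeVar, 6 residual degrees of freedom, R 4.3.3) and Benjamini-Hochberg adjustment. A CV of 0 was set to 0.0025. It was tested on simulated data. Other alternatives changed the pseudocount, the filter, the threshold, the transcript and the scaling. From each list, the genes named are up to 4 that passed, by smallest p, and the 2 best expressed that did not, plus those in counts of 5 or fewer. The 10 genes and all lists were chosen with earlier results of these data known. Some genes of the lists are counted but not reported here by name.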

Additional observations from a re-analysis of the deposited data

How the results depend on the processing

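No paired analysis was possible because the deposited table holds group means without replicate columns, and for the same reason no replicate could be left out. The 2 higher and 2 lower calls among the 10 factors were the same genes under the moderated limma test, with or without the median ratio of genes at or above 5 RPKM in both groups set to 1 (a shift of 0.05 on the log2 scale), and with a minimum of 5 RPKM. Without a filter Emx2 was added, giving 3 higher. At an adjusted p of 0.01 the calls were 0 higher and 0 lower, while over all genes 655 were higher and 752 lower. With the second best expressed transcript 1 was higher, since Wt1 did not pass, and the ratio of Sox9 was -0.06. Of 48 alternative ratios of single factors 46 moved by less than the spread between replicates. The exceptions were that of Sox9 and that of Emx2 with 0.1 RPKM added (0.76), because a smaller pseudocount shrinks low genes less. Setting the median ratio to 1 turned 2837 higher and 3529 lower limma calls over all genes into 3511 and 2574, so the higher share moved from 44.6% to 57.7%. Without counts per sample, the precision of low genes such as Emx2 and Gata1 is known only through the CVs.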
